A study of Homo sapiens with 38 samples.

Results

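Diffuse large B-cell lymphoma is a tumour of mature B cells, and pracinostat is a hydroxamate inhibitor of histone deacetylases that has been used in blood cancers. The comparison described here set the RNA of cells exposed to pracinostat for 6 h against that of the same lines exposed for 6 h to DMSO, the solvent. Its members were every library labelled with either treatment at that time, 12 of the 38 samples of the series. They came from 6 established lymphoma lines (OCILY1, PFEIFFER, SUDHL4, SUDHL6, TOLEDO and WSUDLCL2), each with 1 pracinostat and 1 DMSO library. The rest of the series held the same solvent and drugs at 14 days and vorinostat, a second hydroxamate, at both times. Doses were not given in the sources used here. The labels name no genetic modification, each line is 1 culture model of 1 tumour, and their identity had been checked by short tandem repeat profiling according to the labels. With 1 library per line and treatment, the 6 lines served as the replicates, paired by line, so that the p-values below measure the spread of the response between lines. Nothing in the labels says that the paired libraries came from independently repeated treatments.

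Histone deacetylases remove acetyl groups from lysines in histone tails and in many other proteins, and as parts of corepressor complexes they help to keep genes silent. Acetyltransferases such as CREBBP and EP300 add those groups, and bromodomain proteins read them and pass the signal to the elongation machinery of RNA polymerase II. Hydroxamates bind the zinc ion in the active site of the zinc-dependent deacetylases, so acetylation builds up within hours, and transcripts both rise and fall. In lymphoma these compounds are known for inducing the cyclin-dependent kinase inhibitor CDKN1A, for arresting growth and for lowering MYC. In a bulk culture a lower signal can come from fewer cells of a kind or from less RNA per cell, and these cannot be told apart here.

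The DMSO libraries held 3286221 to 8741435 counts and the pracinostat libraries 4995688 to 5964501. The DMSO library of SUDHL4 was the shallowest, and the next shallowest was the pracinostat library of WSUDLCL2. A total of 3 counts corresponded to between 0.347 and 1.01 CPM (the counts of a gene scaled to a common library size), which is the lowest level these libraries resolve. Each of the 12 libraries resembled the other library of its own line more closely than any library of another line (lowest correlation within a line 0.93, highest between lines 0.873, across genes). The treatment field marks the DMSO libraries of SUDHL4, WSUDLCL2, SUDHL6 and OCILY1 with V and those of TOLEDO and PFEIFFER with P, without explaining the marks. All 7 pan-B-cell markers, among them MS4A1, CD79A, CD79B, PAX5, CD22 and CD37, were present, with a summed level of 2790 to 7261 CPM in DMSO and 2293 to 3819 CPM after pracinostat. Markers of natural killer cells summed to at most 5.47 CPM and myeloid markers to at most 3.04 CPM, while fibroblast markers reached a sum of 86.2 CPM in DMSO and 43.9 CPM after pracinostat. The fibroblast gene LUM was at 0 in all 12 libraries, but DCN, a matrix proteoglycan, stood at 83.9 and 42.4 CPM in SUDHL4, COL1A1 reached 19.4 CPM and PDGFRA 14.5 CPM. PFEIFFER was unusual in carrying CD8A, a co-receptor of cytotoxic T cells (1265 CPM in DMSO, 538 CPM after pracinostat), and EPCAM, an epithelial adhesion protein (259 and 219.6 CPM). Of the other T-cell markers its CD3D stood at 1.57 and 0.675 CPM, but its CD247 at 133.6 and 64.2 CPM. TRAC, also a T-cell marker, stood in DMSO at 81.5 CPM in WSUDLCL2 and 39.9 CPM in OCILY1.

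One library stood apart in trace transcripts. The DMSO library of SUDHL6 held 8.43 CPM of CD8A and 3.23 CPM of EPCAM, and both were at 0 in the pracinostat library of the same line. A set of 14 transcripts was abundant in PFEIFFER (over 100 CPM in DMSO and over 50 CPM after pracinostat), under 3 CPM in the other 4 lines and below 5% of the PFEIFFER level in SUDHL6. All 14 were present in that DMSO library of SUDHL6, at a median of 0.72% of their PFEIFFER level (range 0.399% to 3.56%). In its pracinostat partner 5 of the 14 were above 0, with a median of 0. In the 19 other combinations of library and source line with at least 5 such transcripts the median reached at most 0.244%. Without SUDHL6, 1834 genes were called higher and 1672 lower, against 2270 and 2106 with it. Leaving out any other line also lowered both counts, to 1892 and 1666 without OCILY1 and to 2142 and 1907 without TOLEDO. The part of these trace transcripts in single-gene results was not tested.

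Pracinostat moved a large share of the transcriptome within 6 h, and in both directions. Of 11793 genes tested with edgeR's quasi-likelihood test with the line as block, 4376 passed an adjusted p of 0.05 (37.1%), of which 2270 rose (19.2% of those tested) and 2106 fell (17.9%). The median log2 change over all genes was 0.03. The shares of 19.2% higher and 17.9% lower are the background for the counts of list members below. Rises were the larger in size. Among the called genes 769 rose and 507 fell by at least 1 on the log2 scale, 148 rose and 18 fell by at least 2, and 24 rose and 1 fell by at least 3. The 6 pracinostat libraries lay above all 6 DMSO libraries for 139 genes (1.18%) and below all of them for 284 genes (2.41%). Scaling by library totals in place of the trimmed mean gave 2837 rises (63.4% of calls, against 51.9%) and 1641 falls, with a median over all genes of 0.12, so the balance between rises and falls depends on the scaling.

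Line by line the breadth of the response was similar. Among 10496 genes with a mean of at least 5 CPM, PFEIFFER had the fewest genes changed at least 2-fold, 791 higher and 455 lower, and WSUDLCL2 the most, 973 higher and 978 lower. In OCILY1 there were 1027 higher and 604 lower, in TOLEDO 1091 and 644, in SUDHL4 912 and 882, and in SUDHL6 638 and 831. SUDHL6 and WSUDLCL2 thus had more genes lower than higher, while the other 4 lines had more genes higher than lower. This order depended on the settings in a pair of lines. WSUDLCL2 had more genes higher with library-total scaling (999 against 955) and at a mean of at least 1 CPM (1586 against 1560), and SUDHL4 had more genes lower at a mean of at least 20 CPM (426 higher and 477 lower). A change of this size was mostly private to a few lines. For 86 genes it was upward in all 6 lines and for 67 downward in all 6, whereas 1191 genes were 2-fold higher in exactly 1 line and 1163 were 2-fold lower in exactly 1. Across genes the log2 changes of any pair of lines correlated with r between 0.41 (SUDHL4 and TOLEDO) and 0.69 (SUDHL4 and WSUDLCL2), a description, since genes are not independent replicates.

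**Figure D1:**
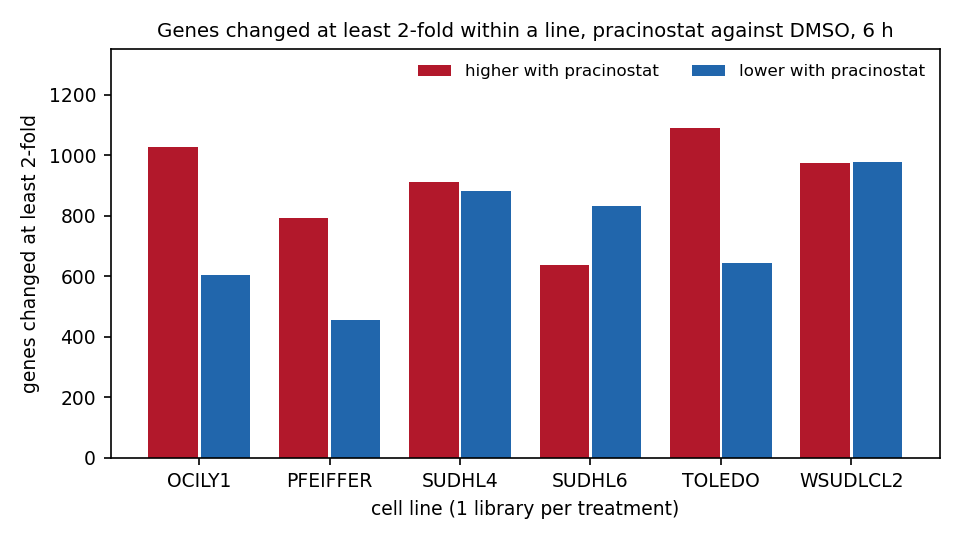
Number of genes at least 2-fold higher or lower within each line after 6 h of pracinostat, among 10496 genes with a mean of at least 5 CPM (bars start at 0, 1 library per line and treatment, so there is no error bar). Upward bars range from 638 in SUDHL6 to 1091 in TOLEDO and downward bars from 455 in PFEIFFER to 978 in WSUDLCL2.

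The largest rises were of genes that were close to silent in these B cells. The 15 genes at the top, chosen among those that moved the same way in all 6 lines, rose by 3.13 to 3.88 on the log2 scale, from DMSO medians of only 0.313 to 4.36 CPM. CTTNBP2NL, a component of STRIPAK phosphatase complexes, ran from 0 to 5.89 CPM (median 0.442) in DMSO and from 12.0 to 31.6 CPM (median 14.0) after pracinostat (log2 change 3.88, SE 0.43, adjusted p = 0.000187). The groups did not overlap, and the within-line change ran from 2.36 in SUDHL6 to 5.40 in SUDHL4. RGL1, an exchange factor for Ral GTPases, ran from 0.416 to 1.72 CPM (median 0.696) in DMSO and from 6.98 to 26.3 CPM (median 10.1) after pracinostat (log2 change 3.66, SE 0.28, adjusted p = 5.55e-05), again with no overlap. ATP7B, a copper-exporting ATPase, ran from 0.288 to 3.00 CPM (median 1.06) in DMSO and from 6.24 to 22.4 CPM (median 9.60) after pracinostat (log2 change 3.25, SE 0.26, adjusted p = 6.67e-05). All 6 ATP7B values after pracinostat were above the highest DMSO value.

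Several of the 15 genes are best known from neurons. APLP1, a relative of the amyloid precursor protein, ran from 0 to 2.29 CPM (median 0.566) in DMSO and from 2.23 to 17.5 CPM (median 11.1) after pracinostat (log2 change 3.66, SE 0.41, adjusted p = 0.000156). TUBB2B, a beta-tubulin of developing neurons, ran from 0 to 71.5 CPM (median 0.785) in DMSO and from 1.20 to 339 CPM (median 21.8) after pracinostat (log2 change 3.56, SE 0.44, adjusted p = 0.000320), and its reads can be shared with the near-identical TUBB2A, which also rose. SEPT3, a septin of nerve terminals, rose by 3.56 (SE 0.28) from a median of 0.364 to 5.69 CPM. RND2, a small GTPase studied in migrating neurons, rose by 3.34 (SE 0.31), and SLC30A3, the zinc transporter of synaptic vesicles, by 3.13 (SE 0.39). For these 5 genes the groups overlapped, and the lines differed widely: TUBB2B reached 339 CPM after pracinostat in SUDHL6 and 1.20 CPM in SUDHL4.

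Other genes in this top set belong to further lineages or to the cell cortex. HEY1, a repressor switched on by Notch, ran from 0.156 to 2.37 CPM (median 0.646) in DMSO and from 4.38 to 14.2 CPM (median 9.04) after pracinostat (log2 change 3.60, SE 0.35, adjusted p = 0.000106) without overlap. CORO2A, an actin-binding coronin, ran from 0.144 to 3.29 CPM (median 1.48) in DMSO and from 8.23 to 21.4 CPM (median 16.5) after pracinostat (log2 change 3.41, SE 0.30, adjusted p = 8.02e-05), also without overlap. ESAM, an endothelial adhesion molecule, and PMEL, the fibril protein of melanosomes, rose by 3.19 (SE 0.28) and 3.18 (SE 0.28), each with the 2 groups apart. ZNF385A, an RNA-binding zinc-finger protein, rose from a median of 4.36 to 54.7 CPM, the highest level reached in this set. RASSF4, a Ras-association domain protein, and VSIG2, an immunoglobulin-domain membrane protein, rose by 3.23 (SE 0.29) and 3.21 (SE 0.29). In 7 of the 15 genes the groups were fully apart, and the largest adjusted p among them was 0.00032.

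The largest falls were of smaller size, in genes with DMSO medians between 3.14 and 218.4 CPM. DUS3L, which makes dihydrouridine in transfer RNA, ran from 20.3 to 57.2 CPM (median 26.5) in DMSO and from 2.58 to 7.93 CPM (median 6.09) after pracinostat (log2 change -2.42, SE 0.25, adjusted p = 0.000119). METAP1D, a mitochondrial methionine aminopeptidase, ran from 12.6 to 28.3 CPM (median 18.7) in DMSO and from 1.85 to 5.06 CPM (median 4.03) after pracinostat (log2 change -2.32, SE 0.21, adjusted p = 8.02e-05). HCFC1, a chromatin cofactor of E2F and other factors, ran from 174 to 390.4 CPM (median 218) in DMSO and from 29.5 to 108 CPM (median 61.4) after pracinostat (log2 change -2.01, SE 0.19, adjusted p = 0.000108). For all 3 genes every pracinostat value was below every DMSO value. TFAP4, an E-box-binding factor regulated by MYC, fell by 2.23 on the log2 scale (SE 0.20), RABEP2, an endosomal Rab effector, by 2.18 (SE 0.25) and PRDM11, a PR-domain gene, by 2.15 (SE 0.41), and these groups were apart as well. The rule asks for a minimum mean level over both groups, so it sets which DMSO levels a rise or a fall can start from.

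For 7 of the remaining 9 genes of this set the groups overlapped. CTSO, a lysosomal cysteine protease, ran from 0.338 to 20.0 CPM (median 3.14) in DMSO and from 0 to 2.53 CPM (median 0.152) after pracinostat and had the largest fitted fall (log2 change -3.21, SE 0.39, adjusted p = 0.000246). TNFRSF17, the BCMA receptor of late B cells and plasma cells, ran from 9.01 to 317 CPM (median 43.6) in DMSO and from 1.82 to 85.8 CPM (median 8.58) after pracinostat (log2 change -2.09, SE 0.22, adjusted p = 0.000146). LANCL2 fell by 2.14 (SE 0.19), PLD6, a mitochondrial outer-membrane phospholipase, by 2.17 (SE 0.26) and NIPAL2 by 2.13 (SE 0.27). IGHG1, an immunoglobulin heavy-chain constant gene, fell by 2.21 (SE 0.22), but it belongs to a family of near-identical copies among which reads can be split. The same limit holds for GTF2IRD2B, a near-copy of GTF2IRD2, which fell by 2.30 (SE 0.26). TSPOAP1-AS1 and FBXL19-AS1 fell by 2.57 (SE 0.33) and 2.22 (SE 0.22). The strand setting of the counting was not given in the sources used here, so reads of these antisense genes and of their partners cannot be told apart. Groups were apart for 8 of the 15 genes, and the largest adjusted p was 0.0028.

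**Figure D2:**
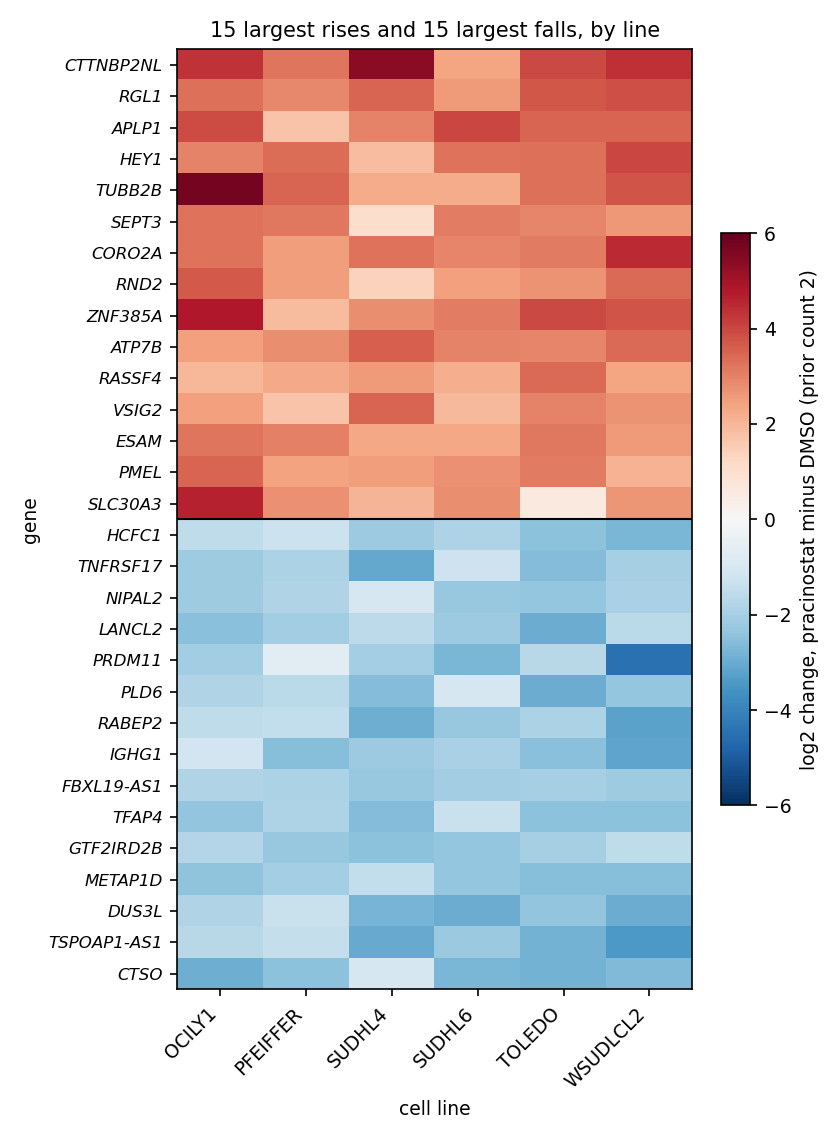
Log2 change within each line (columns) for the 15 largest rises (above the line) and the 15 largest falls (below it), calculated from CPM with a prior count of 2. By the rule that chose them all 30 genes have 1 sign in all 6 lines; the size varies, from 1.04 in SUDHL4 to 3.27 in OCILY1 for SEPT3 and from -2.92 in OCILY1 to -1.03 in SUDHL4 for CTSO.

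Promoter sequences of the genes with the largest changes and of CDKN1A are shown as the control regions closest to these changes. The windows run from 250 bases before to 50 bases after the start site of a gene (RefSeq, GRCh38.p14, read along the gene's strand), and 8 of the 15 largest rises and 6 of the 15 largest falls matched an entry. Capitals mark GC boxes (GGGCGG or its reverse complement CCGCCC, the core letters bound by SP1-type factors, overlaps counted) and the palindromic E-box CACGTG. The windows are CTTNBP2NL at chr1:112395964-112396263 (plus strand), RGL1 at chr1:183635859-183636158 (plus), APLP1 at chr19:35868324-35868623 (plus), CDKN1A at chr6:36678464-36678763 (plus), TSPOAP1-AS1 at chr17:58325200-58325499 (plus), DUS3L at chr19:5791114-5791413 (minus) and METAP1D at chr2:171999703-172000002 (plus).
CTTNBP2NL: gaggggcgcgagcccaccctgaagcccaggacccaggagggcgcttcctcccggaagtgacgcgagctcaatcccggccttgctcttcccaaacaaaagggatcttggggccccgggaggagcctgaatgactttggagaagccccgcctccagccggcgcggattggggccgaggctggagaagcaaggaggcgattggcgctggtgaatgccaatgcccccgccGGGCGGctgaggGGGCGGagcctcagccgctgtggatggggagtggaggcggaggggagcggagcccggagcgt
RGL1: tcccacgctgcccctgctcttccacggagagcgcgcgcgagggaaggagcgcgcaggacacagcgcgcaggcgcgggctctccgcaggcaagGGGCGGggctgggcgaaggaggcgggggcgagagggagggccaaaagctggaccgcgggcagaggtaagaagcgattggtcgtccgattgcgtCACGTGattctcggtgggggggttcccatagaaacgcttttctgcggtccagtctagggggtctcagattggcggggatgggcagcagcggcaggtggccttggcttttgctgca
APLP1: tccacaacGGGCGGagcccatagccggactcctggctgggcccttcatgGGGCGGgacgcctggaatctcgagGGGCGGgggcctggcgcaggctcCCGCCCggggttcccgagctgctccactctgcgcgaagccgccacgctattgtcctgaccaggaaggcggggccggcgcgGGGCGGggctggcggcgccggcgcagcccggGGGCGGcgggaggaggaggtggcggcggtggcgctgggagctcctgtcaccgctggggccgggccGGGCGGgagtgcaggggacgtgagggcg
CDKN1A: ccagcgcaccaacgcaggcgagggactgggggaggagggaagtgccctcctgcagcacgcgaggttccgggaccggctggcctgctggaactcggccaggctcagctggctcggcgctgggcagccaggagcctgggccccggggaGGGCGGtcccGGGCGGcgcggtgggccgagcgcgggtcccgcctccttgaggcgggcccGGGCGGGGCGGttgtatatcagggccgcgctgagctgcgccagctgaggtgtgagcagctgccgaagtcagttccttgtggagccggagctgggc
TSPOAP1-AS1: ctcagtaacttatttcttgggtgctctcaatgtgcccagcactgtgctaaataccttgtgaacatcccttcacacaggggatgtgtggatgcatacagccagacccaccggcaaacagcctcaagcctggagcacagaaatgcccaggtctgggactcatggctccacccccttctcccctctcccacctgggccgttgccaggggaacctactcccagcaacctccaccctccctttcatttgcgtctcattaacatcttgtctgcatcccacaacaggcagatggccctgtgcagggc
DUS3L: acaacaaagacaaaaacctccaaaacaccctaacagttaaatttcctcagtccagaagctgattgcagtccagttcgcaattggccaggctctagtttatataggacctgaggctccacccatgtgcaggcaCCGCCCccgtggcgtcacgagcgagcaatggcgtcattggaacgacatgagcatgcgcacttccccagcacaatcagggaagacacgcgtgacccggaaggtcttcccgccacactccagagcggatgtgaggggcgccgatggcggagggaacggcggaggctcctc
METAP1D: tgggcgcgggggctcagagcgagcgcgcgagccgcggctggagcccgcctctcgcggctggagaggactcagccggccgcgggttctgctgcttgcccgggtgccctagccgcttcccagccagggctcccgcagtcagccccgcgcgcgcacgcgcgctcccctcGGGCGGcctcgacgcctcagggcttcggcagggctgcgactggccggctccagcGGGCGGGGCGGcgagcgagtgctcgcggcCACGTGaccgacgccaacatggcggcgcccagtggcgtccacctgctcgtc

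The promoter of APLP1 held 7 GC boxes, that of CDKN1A 4, METAP1D 3, CTTNBP2NL 2, RGL1 1 and DUS3L 1, while the window of TSPOAP1-AS1 held none. RGL1 and METAP1D each had 1 E-box. Of the 8 matched rises 7 had a GC box and 5 had at least 2, and of the 6 matched falls 4 had a GC box and 1 had at least 2. Over all genes with a promoter in the table, a GC box was present for 77.9% of those called higher (1413 of 1814), 68.6% of those called lower (1146 of 1671) and 69.8% of those not called, and at least 2 were present for 56.1%, 44.0% and 44.4%. A GC box was found in 44.6% of all 27305 promoters. The E-box went the other way, with 8.82% of called-higher, 13.5% of called-lower and 9.97% of uncalled promoters, against 7.43% of all promoters. Restricting to genes with at least 5 CPM in the DMSO libraries of 14 days, which do not enter this comparison, left the GC box shares at 78.3%, 68.9% and 70.3%. These shares describe letters in a window, not bound sites.

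Among the genes of the acetylation machinery itself, acetyltransferases fell and most deacetylase genes, whose products the drug inhibits, were not called. Of 13 acetyltransferase genes tested 9 fell and 0 rose (69.2% lower), with a median log2 change of -0.59 against 0.03 over all genes. KAT5, the catalytic subunit of the TIP60 complex, ran from 18.6 to 29.1 CPM (median 25.2) in DMSO and from 4.95 to 12.2 CPM (median 7.50) after pracinostat (log2 change -1.69, SE 0.18, adjusted p = 0.000130), with every pracinostat value under every DMSO value. KAT6B, a MYST-family enzyme, fell by 1.26 (SE 0.15, adjusted p = 0.000230) with the groups apart too. CREBBP, which is often mutated in this lymphoma, ran from 42.2 to 170.1 CPM (median 106) in DMSO and from 27.1 to 88.3 CPM (median 57.5) after pracinostat (log2 change -0.81, SE 0.16, adjusted p = 0.00306). Its paralogue EP300 ran from 152 to 259.7 CPM (median 179.8) in DMSO and from 74.7 to 172 CPM (median 133) after pracinostat (log2 change -0.59, SE 0.14, adjusted p = 0.00800). CREBBP was barely lower in OCILY1 (-0.03) and lowest in WSUDLCL2 (-1.42).

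Of 10 deacetylase genes tested 3 rose and 1 fell, with a median of 0.15. HDAC11, the only class IV enzyme, rose from 0 to 4.43 CPM (median 0.451) to 1.72 to 9.44 CPM (median 3.03) (log2 change 2.21, SE 0.42, adjusted p = 0.00274). HDAC3, the catalytic subunit of NCOR complexes, ran from 58.5 to 112 CPM (median 66.5) in DMSO and from 81.4 to 151 CPM (median 103) after pracinostat (log2 change 0.56, SE 0.11, adjusted p = 0.00330). The class IIa genes diverged, HDAC5 rising by 0.63 (adjusted p = 0.0314) and HDAC7 falling by 0.80 (adjusted p = 0.0183). HDAC5 lost its call without OCILY1, PFEIFFER, SUDHL6, TOLEDO or WSUDLCL2 (adjusted p = 0.0545 to 0.0945) and HDAC7 without PFEIFFER or WSUDLCL2 (0.0510 and 0.0557). HDAC1, the main nuclear class I enzyme, had a median of 603 CPM in DMSO and 648 CPM after pracinostat (log2 change 0.00, SE 0.11, adjusted p = 0.993). HDAC2 had a log2 change of 0.26 (SE 0.12, adjusted p = 0.106), and HDAC6, the cytoplasmic tubulin deacetylase, -0.29 (SE 0.12, adjusted p = 0.0852). HDAC2 passed without TOLEDO (0.37, adjusted p = 0.0269) and with library-total scaling (0.35, adjusted p = 0.0312). The deacetylase genes called higher numbered 1 without PFEIFFER.

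Of 29 subunits of HDAC corepressor complexes 7 rose (24.1%) and 9 fell (31%), against 19.2% and 17.9% of all genes. RCOR2 (CoREST family) and SAP30 (SIN3 complex) rose by 1.98 and 0.93 (adjusted p = 0.00342 and 0.00583), while MBD3 and CHD3 of the NuRD complex fell by 1.00 and 0.86 (adjusted p = 0.00467 and 0.000701). Readers of acetyl-lysine and elongation factors were split as well, with 6 of 27 higher (22.2%) and 8 lower (29.6%). ELL2 and AFF1, subunits of the super elongation complex, rose by 1.37 (SE 0.33) and 0.96 (SE 0.18). MEPCE, the capping enzyme that holds P-TEFb inactive in the 7SK particle, ran from 78.7 to 198 CPM (median 123) in DMSO and from 23.7 to 59.8 CPM (median 30.5) after pracinostat (log2 change -1.79, SE 0.12, adjusted p = 5.21e-05), and the groups were apart. NELFCD, a pausing factor, fell by 0.85 (SE 0.11, adjusted p = 0.000280).

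Methyltransferases of histones moved only downward in this fit, 13 of 28 lower and 0 higher with a median of -0.41, whereas with library-total scaling 11 were lower and 3 higher. SUV39H1, a heterochromatin H3K9 methyltransferase, ran from 24.4 to 63.9 CPM (median 26.6) in DMSO and from 10.1 to 22.9 CPM (median 14.2) after pracinostat (log2 change -1.06, SE 0.17, adjusted p = 0.00115). SETDB1, another H3K9 enzyme, ran from 29.0 to 81.4 CPM (median 46.5) in DMSO and from 14.5 to 40.8 CPM (median 21.1) after pracinostat (log2 change -1.10, SE 0.12, adjusted p = 0.000134). KMT2D, often mutated in this lymphoma, had a median of 166 CPM in DMSO and 109 CPM after pracinostat and missed the threshold (log2 change -0.53, adjusted p = 0.0512), as did EZH2, the Polycomb methyltransferase (0.30, adjusted p = 0.0931). Both passed without TOLEDO (adjusted p = 0.0445 and 0.0403), KMT2D also without OCILY1 (0.0225) and with DESeq2 (0.0311), and EZH2 with library-total scaling (0.0302). Of 22 demethylases 2 rose and 9 fell. KDM5B, which removes H3K4 methylation, rose from a median of 5.21 to 31.4 CPM (log2 change 2.00, SE 0.32, adjusted p = 0.00114), and KDM7A by 0.96 (adjusted p = 0.00340). PHF2 fell by 0.94 (adjusted p = 0.00214).

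Within remodelling complexes, subunits were called in both directions, as were genes at large. Of 27 SWI/SNF genes 4 rose (14.8%, against 19.2% of all genes) and 11 fell (40.7%, against 17.9% of all genes). DPF1 and DPF3, the forms of a subunit found in neurons and muscle, ran from 1.66 to 11.2 CPM (median 3.28) in DMSO and from 9.78 to 19.1 CPM (median 17.1) after pracinostat (log2 change 1.94, SE 0.32, adjusted p = 0.00128) and rose by 1.91 (SE 0.27), respectively. BCL7A, a subunit mutated in B-cell lymphoma, ran from 127 to 421 CPM (median 275) in DMSO and from 35.4 to 115 CPM (median 85.0) after pracinostat (log2 change -1.70, SE 0.13, adjusted p = 5.55e-05). No pracinostat value of BCL7A reached the lowest DMSO value. Of 32 Polycomb genes 5 rose (15.6%) and 8 fell (25%), not far from the shares over all genes. BCORL1, a noncanonical PRC1 corepressor, ran from 4.85 to 25.4 CPM (median 8.03) in DMSO and from 23.9 to 135 CPM (median 39.6) after pracinostat (log2 change 2.32, SE 0.16, adjusted p = 5.21e-05), JARID2, a PRC2 cofactor, rose by 1.35 (SE 0.17), and PHF19, a PRC2 accessory subunit, fell by 1.73 (SE 0.18, adjusted p = 0.000130). KDM2B fell by 0.69 (adjusted p = 0.00160). Of 12 DNA methylation genes 2 rose (16.7%) and 3 fell (25%), again not far from those shares. They were led by the de novo methyltransferase DNMT3B (log2 change 1.50, SE 0.28, adjusted p = 0.00245) and the dioxygenase TET3 (log2 change -1.04, SE 0.20, adjusted p = 0.00322). Polycomb genes called lower numbered 3 without SUDHL4 and 5 without OCILY1, PFEIFFER, SUDHL6 or TOLEDO, and those called higher 8 without TOLEDO.

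Replication-independent histone genes included some of the stronger rises. H2AFJ, an H2A variant, ran from 0 to 3.29 CPM (median 0.750) in DMSO and from 0.343 to 15.5 CPM (median 6.70) after pracinostat (log2 change 2.73, SE 0.37, adjusted p = 0.000415), and H1FX, a linker histone, ran from 0.676 to 25.2 CPM (median 3.33) in DMSO and from 4.63 to 112 CPM (median 17.4) after pracinostat (log2 change 2.44, SE 0.34, adjusted p = 0.000521). Of 13 such genes tested 3 rose and 0 fell. H1F0, the linker histone of differentiated cells and a classical responder to deacetylase inhibitors, did not pass (log2 change 2.07, SE 1.04, adjusted p = 0.145) and the lines disagreed. It went from 18.7 to 294 CPM in OCILY1, from 232 to 680.2 in PFEIFFER and from 4.04 to 100.1 in WSUDLCL2. In SUDHL6 it went the other way, from 19.6 to 0.514 CPM, and it was near 0 in both libraries of SUDHL4 (0.676 and 0.172 CPM) and TOLEDO (0 and 0.168 CPM). Without SUDHL6 the gene passed (log2 change 3.18, adjusted p = 0.00355). Of 13 tested genes on a list of responders reported for this drug class, 8 rose and 3 fell, but that list was assembled from knowledge of such drugs and is not independent of its direction.

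**Figure D3:**
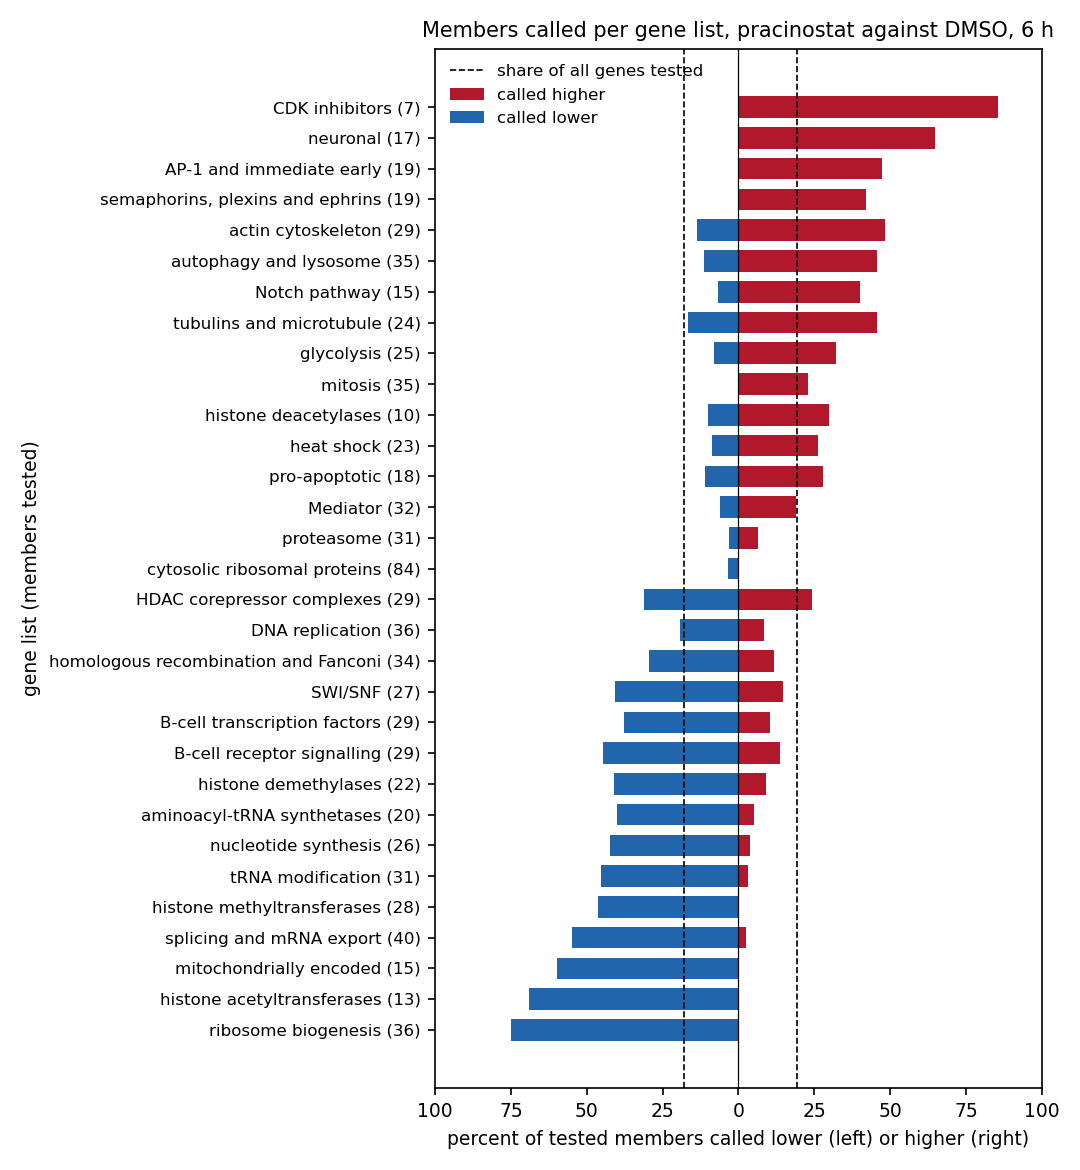
Percent of tested members of each gene list called higher (right) or lower (left) after 6 h of pracinostat (adjusted p under 0.05), with dashed lines at the share over all genes tested, 19.2% higher and 17.9% lower. CDK inhibitors and neuronal genes extend far to the right, and ribosome biogenesis genes and acetyltransferases far to the left.

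Most cell cycle brakes rose in the joint test. Of 7 CDK inhibitor genes tested 6 rose and 0 fell, with a median of 0.83. Within lines the median change of this list was only 0.07 in TOLEDO, against 0.69 in OCILY1 to 1.27 in WSUDLCL2 for the other lines. CDKN1A, which encodes p21, ran from 8.36 to 26.9 CPM (median 11.6) in DMSO and from 20.6 to 101 CPM (median 60.2) after pracinostat (log2 change 2.08, SE 0.25, adjusted p = 0.000265). It was higher in all 6 lines, from 0.67 in SUDHL4 to 2.86 in TOLEDO, and the groups overlapped only because the SUDHL4 value after treatment (20.6 CPM) lay under the highest DMSO value. CDKN2B, which encodes p15, ran from 0.433 to 2.89 CPM (median 0.650) in DMSO and from 3.04 to 12.7 CPM (median 7.37) after pracinostat (log2 change 3.07, SE 0.33, adjusted p = 0.000132) with no overlap. CDKN2D, CDKN3, CDKN1B and CDKN2C passed as well.

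Other cell cycle genes moved less and in both directions. Of 31 cyclins, CDKs and E2F factors 7 rose and 9 fell: CDK2 rose by 0.67 (adjusted p = 0.00496), CCND2, a D-type cyclin, rose from a median of 0.287 to 3.63 CPM (log2 change 2.69, SE 0.67, adjusted p = 0.0110), and the repressor E2F8 and the E2F partner TFDP1 fell by 1.17 and 0.65 (adjusted p = 0.00302 and 0.00108). Of 36 replication genes 3 rose (8.33%, against 19.2% of all genes) and 7 fell (19.4%, near the 17.9% of all genes). All but LIG1 of those that fell, namely MCM2, MCM3, MCM4, MCM5, MCM7 and GINS3, are parts of the replicative helicase. So is GINS4, which rose. MCM7 ran from 440.5 to 1150.0 CPM (median 685) in DMSO and from 256 to 537 CPM (median 417) after pracinostat (log2 change -0.88, SE 0.11, adjusted p = 0.000263) and MCM5 ran from 204 to 398 CPM (median 265) in DMSO and from 108 to 255 CPM (median 139.6) after pracinostat (log2 change -0.86, SE 0.10, adjusted p = 0.000212). RFC1 and GINS4 rose by 0.67 and 0.63 (adjusted p = 0.000831 and 0.00382). Of 34 genes of homologous recombination and the Fanconi pathway 4 rose and 10 fell, with RAD51D and NBN, both in repair of broken ends, down by 1.07 and 0.98 (adjusted p = 0.000370 and 0.000384) and the groups apart for both. Of the cyclin, CDK and E2F list 3 were called higher without SUDHL4 and 4 without SUDHL6, and of the recombination list 6 were called lower without SUDHL6, and 1 (without SUDHL6) or 2 (without SUDHL4 or WSUDLCL2) were called higher.

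Mitotic genes showed 8 of 35 higher (22.9%, against 19.2% of all genes) and 0 lower. PTTG1, the securin that guards sister chromatids, ran from 80.6 to 148 CPM (median 118) in DMSO and from 208 to 447 CPM (median 332) after pracinostat (log2 change 1.43, SE 0.17, adjusted p = 0.000237) and its groups did not overlap. CENPE, a kinetochore motor, rose by 0.94 (SE 0.25, adjusted p = 0.0146) with a spread from -0.21 in TOLEDO to 2.02 in SUDHL4. The list as a whole split by line. Its median change was 0.97 in SUDHL4, 0.55 in SUDHL6, 0.43 in WSUDLCL2 and 0.16 in PFEIFFER, but -0.14 in OCILY1 and -0.46 in TOLEDO. The number of mitotic genes called was 5 higher without SUDHL6 and 14 higher without TOLEDO, with 2 lower without SUDHL4, and it was 14 higher with library-total scaling.

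**Figure D4:**
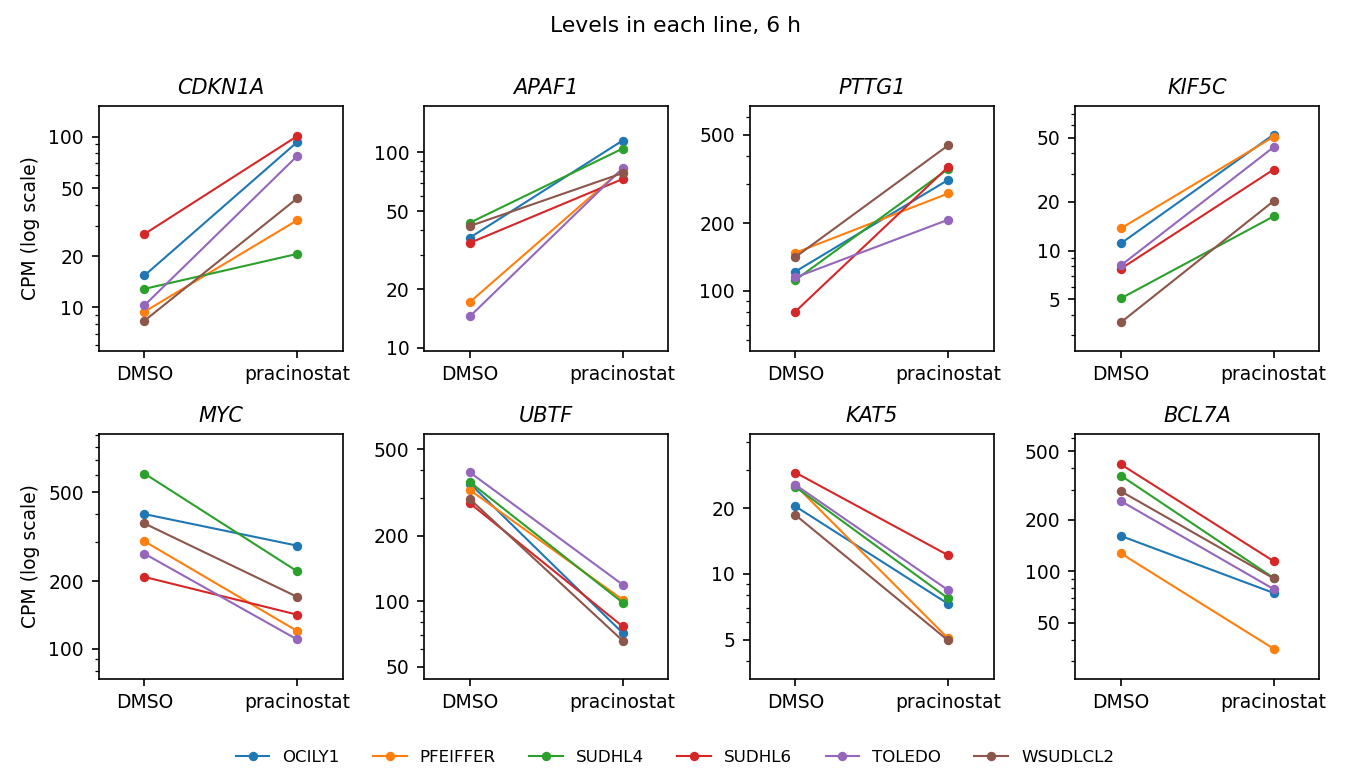
CPM on a log axis in DMSO and after pracinostat for 8 genes, 1 line joining the 2 libraries of each cell line. CDKN1A, APAF1, PTTG1 and KIF5C are higher after pracinostat in all 6 lines, and MYC, UBTF, KAT5 and BCL7A are lower in all 6.

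MYC and many growth genes fell. MYC ran from 209.5 to 606 CPM (median 333) in DMSO and from 110.2 to 289 CPM (median 156) after pracinostat (log2 change -1.03, SE 0.15, adjusted p = 0.000527) and was lower in all 6 lines, from -1.45 in SUDHL4 to -0.47 in OCILY1. In its network MYCL rose from 0.433 to 1.35 CPM (median 0.947) to 2.80 to 7.03 CPM (median 5.34) (log2 change 2.45, SE 0.27, adjusted p = 0.000141) and MXD1, a MAX partner that opposes MYC, rose by 1.09 (adjusted p = 0.00220), while MLX fell by 0.83 (adjusted p = 0.00110). Together 4 of the 11 network genes tested rose and 4 fell.

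The ribosome biogenesis genes that passed the test all fell. Of 36 genes 27 fell (75.0%) and 0 rose, with a median of -0.61, and 23 to 27 fell with any 1 line left out. UBTF, which loads RNA polymerase I on ribosomal DNA, ran from 282 to 391 CPM (median 336) in DMSO and from 65.9 to 119 CPM (median 87.6) after pracinostat (log2 change -1.92, SE 0.11, adjusted p = 4.52e-05). UTP20, a processome component, ran from 84.1 to 103 CPM (median 98.0) in DMSO and from 23.8 to 43.6 CPM (median 32.4) after pracinostat (log2 change -1.58, SE 0.14, adjusted p = 8.02e-05). DKC1, the pseudouridine synthase shared with telomerase, ran from 222 to 503 CPM (median 264) in DMSO and from 99.1 to 202 CPM (median 121) after pracinostat (log2 change -1.18, SE 0.10, adjusted p = 8.02e-05). For all 3 the groups were apart. The cytosolic ribosomal protein genes did not follow: 3 of 84 fell, RPL36A by 0.73, RPL7L1 by 0.48 and RPL30, and 0 rose. The share of all counts in ribosomal protein genes was 9.89% ± 1.26 (SD, n = 6) in DMSO and 10.1% ± 1.20 after pracinostat (exact paired permutation test, two-sided, p = 0.594).

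Genes that feed RNA and protein synthesis fell in part. Of 26 nucleotide synthesis genes 11 fell and 1 rose. CTPS1, which makes CTP, ran from 119 to 257 CPM (median 154) in DMSO and from 41.3 to 72.1 CPM (median 56.0) after pracinostat (log2 change -1.50, SE 0.13, adjusted p = 8.02e-05) with no overlap. PFAS of the purine pathway fell by 1.39 (adjusted p = 0.000132), TYMS, the thymidylate synthase, by 1.05 (adjusted p = 0.000616), and TK1, a salvage kinase, rose by 0.80 (adjusted p = 0.00425). Of 31 tRNA modification genes 14 fell and 1 rose, with METTL1, the tRNA guanosine methyltransferase, down by 1.69 (SE 0.18, adjusted p = 0.000134) and its groups apart. Of 20 cytosolic aminoacyl-tRNA synthetases 8 fell and 1 rose: LARS fell by 0.76, TARS by 0.54, and RARS rose by 0.50 (adjusted p = 0.00149, 0.00290 and 0.0118). The synthetases called lower numbered 4 without OCILY1 and 5 without PFEIFFER or SUDHL6.

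Splicing and export factors followed, with 22 of 40 lower and 1 higher and a median of -0.42. U2AF2, which binds the polypyrimidine tract, ran from 286 to 424 CPM (median 337) in DMSO and from 101 to 146 CPM (median 135) after pracinostat (log2 change -1.43, SE 0.11, adjusted p = 5.55e-05), and every pracinostat value lay under every DMSO value. THOC6, of the THO export complex, fell by 1.46 (SE 0.15, adjusted p = 0.000121), also with the groups apart. NXF1, the main export receptor, rose by 0.37 (adjusted p = 0.0211), a call lost without OCILY1 (adjusted p = 0.0535). Of 20 host genes of small nucleolar RNAs 10 fell and 1 rose, with SNHG20 and SNHG3 down by 1.50 and 1.28 (adjusted p = 0.000254 and 0.000102). Of 29 nuclear pore genes 4 rose and 9 fell: NUP43 and NUP133 rose by 0.53 and 0.45, and SEH1L and NUP153 fell by 0.96 and 0.73 (adjusted p between 0.000280 and 0.00393 for the 4). Of 32 Mediator genes 6 rose (18.8%, near the 19.2% of all genes) and 2 fell, with MED20 up by 0.71 and MED24 down by 0.81 (adjusted p = 0.00155 and 0.000829). The small nucleolar RNA host genes called lower numbered 6 without OCILY1 or PFEIFFER. Nuclear pore genes called higher numbered 2 without SUDHL4 and 7 without TOLEDO.

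Telomerase genes included TERT, the catalytic subunit, which ran from 1.35 to 31.5 CPM (median 12.8) in DMSO and from 1.37 to 10.1 CPM (median 5.14) after pracinostat (log2 change -1.36, SE 0.23, adjusted p = 0.00146) and was level in SUDHL4 (0.02). WRAP53, the telomerase trafficking factor, and ACD, a shelterin protein, rose by 0.84 and 0.69 (adjusted p = 0.000449 and 0.00132). In the telomerase and shelterin list 2 of 14 rose and 5 fell. Proteasome genes were largely not called, 2 of 31 higher and 1 lower, PSMB5 down by 0.70 (adjusted p = 0.00175, groups apart), although 8 were called higher with library-total scaling.

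Most pan-B-cell markers fell. Of 7 pan-B-cell markers 6 fell, among them CD37, CD79B, MS4A1, CD79A and PAX5, with a median of -0.88. Of 7 germinal centre markers 1 fell, MME (14.3%, against 17.9% of all genes), and with library-total scaling 0 fell and 1 rose. With any 1 line left out 0 to 2 fell and 0 to 1 rose. Of 4 plasma cell markers tested 3 fell, TNFRSF17, MZB1 and JCHAIN, while IRF4 was not called (log2 change -0.05, adjusted p = 0.941). PRDM1 and SDC1 were below the filter on low counts. Their medians were higher after pracinostat, 0.473 against 0.214 CPM and 1.79 against 0 CPM. Among the pan-B-cell markers CD22 was the exception (adjusted p = 0.144): it was lower in OCILY1, SUDHL4, SUDHL6 and WSUDLCL2 but went from 74.8 to 83.5 CPM in PFEIFFER and from 50.2 to 96.2 CPM in TOLEDO. Of 29 B-cell receptor signalling genes 13 fell and 4 rose. BLK, a B-cell Src-family kinase, ran from 26.6 to 366 CPM (median 93.8) in DMSO and from 15.5 to 102 CPM (median 35.9) after pracinostat (log2 change -1.37, SE 0.14, adjusted p = 0.000121). CD72, an inhibitory co-receptor, ran from 4.01 to 162 CPM (median 78.7) in DMSO and from 4.22 to 45.4 CPM (median 20.2) after pracinostat (log2 change -1.66, SE 0.25, adjusted p = 0.000767), with PFEIFFER, the line of lowest level, level at 0.07. In the opposite direction FYN, a Src-family kinase typical of T cells and neurons, ran from 3.33 to 21.6 CPM (median 11.4) in DMSO and from 18.1 to 50.9 CPM (median 33.2) after pracinostat (log2 change 1.68, SE 0.19, adjusted p = 0.000149), and PRKCB, the protein kinase C of this pathway, rose by 1.60 (SE 0.35, adjusted p = 0.00605).

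Among B-cell transcription factors 11 of 29 fell and 3 rose. IKZF3, the lymphoid factor Aiolos, ran from 244 to 1437 CPM (median 375) in DMSO and from 83.4 to 627 CPM (median 138) after pracinostat (log2 change -1.41, SE 0.14, adjusted p = 0.000104) and was lower in all 6 lines. MEF2B, a germinal centre factor, fell by 1.12 (adjusted p = 0.0476), and ID2 and ID3, inhibitors of E proteins, rose by 0.83 and 0.65 (adjusted p = 0.0396 and 0.0140). BCL6, the master repressor of the germinal centre, did not pass (log2 change -0.41, SE 0.37, adjusted p = 0.416). It was lower in 5 lines but went in TOLEDO from 6.86 to 37.1 CPM, the line in which it was least expressed, and it passed without that line (-0.77, adjusted p = 0.00433). Of 12 receptors of the BAFF, APRIL and CD40 class 4 fell and 0 rose. CD27, a memory marker, fell by 1.51 (SE 0.21, adjusted p = 0.000527), with TOLEDO again apart, at 0.156 CPM in DMSO and 0.674 CPM after pracinostat. MEF2B lost its call without OCILY1, SUDHL4, SUDHL6 or WSUDLCL2 (adjusted p = 0.0573 to 0.161), and ID2 without SUDHL4, SUDHL6, TOLEDO or WSUDLCL2 (0.0818 to 0.107). The count of transcription factors called lower was 6 without SUDHL4 and 7 without WSUDLCL2.

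Receptors for migration and antigen presentation gave mixed results. Of 12 chemokine and homing receptors 5 fell and 2 rose: ITGAL, the LFA-1 alpha chain, ran from 16.1 to 395 CPM (median 203) in DMSO and from 11.6 to 136 CPM (median 48.0) after pracinostat (log2 change -1.52, SE 0.19, adjusted p = 0.000314), ITGA4 fell by 1.17 (adjusted p = 0.00430), ITGB1 rose by 1.13 (adjusted p = 0.00125) and CCR7, the lymph node homing receptor, by 1.13 (adjusted p = 0.0398), mainly in OCILY1, where it went from 0 to 3.04 CPM. Of 17 MHC class II genes 1 rose and 3 fell. The 2 chains of the peptide exchanger HLA-DM split, HLA-DMA rising by 0.83 and HLA-DMB falling by 0.91 (adjusted p = 0.0208 and 0.00276), and RFX5, a factor that drives these genes, fell by 0.89 (adjusted p = 0.000314). Of 19 MHC class I genes 4 rose (21.1%) and 3 fell (15.8%), near the 19.2% and 17.9% of all genes. PSMB9 and TAP1 were up by 1.05 and 0.71 and TAPBP and PSMB10 down by 1.06 and 0.92 (adjusted p between 0.00105 and 0.0351). Interferon-stimulated genes gave 1 of 16 higher, IRF1 (0.91, adjusted p = 0.00854), and 2 lower. Leaving out 1 line ended several of these calls. That of CCR7 was lost without SUDHL4, TOLEDO or WSUDLCL2 (adjusted p = 0.0642 to 0.150), that of HLA-DMA without SUDHL6 or WSUDLCL2 (0.0603 and 0.0510) and that of PSMB9 without WSUDLCL2 (0.0857). TAP1 lost its call without SUDHL4, SUDHL6 or WSUDLCL2 (0.0814 to 0.102) and PSMB10 without any of these or OCILY1 (0.0632 to 0.0774). Chemokine and homing receptors called lower were 3 without OCILY1.

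Among the genes of cell death BCL2, the survival gene of germinal centre lymphoma, ran from 105 to 569 CPM (median 266) in DMSO and from 63.6 to 426 CPM (median 115) after pracinostat (log2 change -0.91, SE 0.13, adjusted p = 0.000510) and was lower in all 6 lines. CFLAR, the inhibitor of caspase-8, fell by 0.96 (SE 0.16, adjusted p = 0.00120) and XIAP fell as well, while BIRC3, a target of NF-kB, rose by 0.89 (adjusted p = 0.00180). The pro-apoptotic list had 5 rises and 2 falls among 18 genes. APAF1, the scaffold of the apoptosome, ran from 14.5 to 43.6 CPM (median 35.5) in DMSO and from 72.9 to 115 CPM (median 82.4) after pracinostat (log2 change 1.59, SE 0.21, adjusted p = 0.000445), and its groups were far apart. CASP10, an initiator caspase, rose from 0 to 2.34 CPM (median 0.308) to 0.857 to 6.41 CPM (median 2.99) (log2 change 2.51, SE 0.59, adjusted p = 0.00830). BID and BAX, which act at the mitochondrion, fell by 0.87 and 0.61 (adjusted p = 0.00166 and 0.00537). Called survival genes numbered 1 higher and 3 lower among 10 tested, and called death receptors and ligands 2 higher and 3 lower among 10. Among them TNFRSF10D rose by 1.32 and TNFRSF10B, the TRAIL receptor DR5, by 0.30 (adjusted p = 0.00394 and 0.0414), and the lymphotoxin genes LTA and LTB fell by 1.15 and 1.00 (adjusted p = 0.0251 and 0.0120). The call of TNFRSF10B held only without PFEIFFER (adjusted p = 0.0655 to 0.113 without any other line), and that of LTA was lost without PFEIFFER or WSUDLCL2 (0.0848 and 0.105).

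Of 19 immediate early genes tested (of 30 listed) 9 rose and 0 fell, with a median of 0.74 but only 0.05 in SUDHL4 and 0.15 in WSUDLCL2. IER5 ran from 6.79 to 70.5 CPM (median 15.5) in DMSO and from 23.4 to 176 CPM (median 37.6) after pracinostat (log2 change 1.26, SE 0.16, adjusted p = 0.000280) and MAFF rose by 1.67 (adjusted p = 0.0106), and ATF3, JUN, FOS, EGR1 and NR4A1 were among the others. Of 15 Notch pathway genes tested (of 24 listed) 6 rose and 1 fell. A gene that passed the filter on low counts only through its pracinostat libraries had to be higher there. The counts of these immediate early and Notch lists thus do not describe all members. Besides HEY1, the ligand JAG1 ran from 0.555 to 2.31 CPM (median 1.30) in DMSO and from 2.74 to 6.74 CPM (median 4.60) after pracinostat (log2 change 1.86, SE 0.35, adjusted p = 0.00240), with the groups apart. DTX1, the gene of a Notch-associated ubiquitin ligase, ran from 238 to 785 CPM (median 401) in DMSO and from 95.0 to 260.1 CPM (median 148) after pracinostat (log2 change -1.43, SE 0.15, adjusted p = 0.000121). Of 26 NF-kB genes 5 were higher (19.2%, the same share as over all genes) and 6 lower (23.1%, against 17.9% of all genes). CYLD, a deubiquitinase that restrains the pathway, rose by 0.96 (SE 0.11, adjusted p = 0.000169), whereas IRAK1 and IKBKB, kinases that transmit its signal, fell by 1.41 and 1.07 (adjusted p = 0.000273 and 0.000134). Of 23 JAK, STAT and SOCS genes 5 rose (21.7%) and 3 fell (13%), against 19.2% and 17.9% of all genes. STAT3 and STAT2 were up by 0.88 and 0.73, JAK3 and STAT6 down by 0.84 and 0.77 (adjusted p between 0.00129 and 0.00947). The NF-kB genes called higher numbered 2 without OCILY1 and 3 without SUDHL4, SUDHL6, TOLEDO or WSUDLCL2, and those of the JAK, STAT and SOCS list 3 without PFEIFFER or WSUDLCL2.

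Genes of neurons included several rises. Of 46 neuronal genes 33 were in the count table and 17 passed the filter on low counts, and 11 of those rose and 0 fell, with a median of 1.31. The other 16 in the table fell below the filter, and a gene that passed only through its pracinostat libraries had to be higher there, so the count does not describe the whole list. KIF5C, a kinesin of axonal transport, ran from 3.60 to 13.7 CPM (median 7.92) in DMSO and from 16.3 to 52.2 CPM (median 37.7) after pracinostat (log2 change 2.13, SE 0.16, adjusted p = 5.55e-05), and all 6 pracinostat values exceeded all DMSO values. SYP, STX1A and RAB3D of the synaptic vesicle machinery passed too. Of 19 semaphorin, plexin and ephrin genes tested (of 34 listed) 8 rose and 0 fell, with the same limit from the filter. The ephrin ligand EFNA3 ran from 1.25 to 3.17 CPM (median 2.78) in DMSO and from 5.40 to 14.2 CPM (median 9.75) after pracinostat (log2 change 1.95, SE 0.25, adjusted p = 0.000335), and SEMA6C rose by 1.79 (SE 0.55, adjusted p = 0.0285) with most of the rise in OCILY1 (4.11). SEMA6C lost its call without OCILY1, SUDHL4 or TOLEDO (adjusted p = 0.0536 to 0.0817), and 5 of the semaphorin, plexin and ephrin genes were called higher without TOLEDO.

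Of 24 tubulin and microtubule genes 11 rose and 4 fell. MAPRE3, the end-binding protein EB3 of neurons, ran from 0.578 to 2.43 CPM (median 1.19) in DMSO and from 4.29 to 12.3 CPM (median 8.68) after pracinostat (log2 change 2.75, SE 0.32, adjusted p = 0.000224) with no overlap. TUBB, a widely expressed beta-tubulin, fell by 0.52 (adjusted p = 0.0311) from a median of 1928 to 1243 CPM, and 13 of the genes were higher and 1 lower with library-total scaling. Of 29 actin-related genes 14 rose and 4 fell. LMNA, which encodes lamin A and C, rose by 1.84 (SE 0.52, adjusted p = 0.0184) with a spread from -0.22 in SUDHL6 to 3.76 in TOLEDO, and CTTN, cortactin, fell by 1.22 (adjusted p = 0.0141). TUBB lost its call without OCILY1, PFEIFFER, TOLEDO or WSUDLCL2 (adjusted p = 0.0544 to 0.0735), and CTTN without SUDHL6 or WSUDLCL2 (0.0582 and 0.0561).

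Metabolic genes changed in selected steps. Of 25 glycolysis genes 8 rose and 2 fell: PFKFB4 and the glucose carrier SLC2A3 rose by 1.81 and 1.65 (adjusted p = 0.00341 and 0.00214), and HK2, the inducible hexokinase, ran from 61.9 to 213 CPM (median 126) in DMSO and from 32.2 to 94.7 CPM (median 42.0) after pracinostat (log2 change -1.23, SE 0.14, adjusted p = 0.000182). Of 30 genes of cholesterol and fatty acid synthesis 3 rose and 9 fell, with INSIG2, which retains SREBP in the endoplasmic reticulum, up by 0.90 (groups apart, adjusted p = 0.00159) and FADS2 and FASN down by 0.84 and 1.05 (adjusted p = 0.000273 and 0.0281). Of 35 autophagy and lysosome genes 16 rose and 4 fell. GABARAPL1 and WIPI1, which act in autophagosome formation, rose by 1.64 and 0.96 (adjusted p = 0.00597 and 0.00551), and TFEB, a master regulator of lysosomal genes, fell by 1.17 (adjusted p = 0.00509). FASN lost its call without SUDHL4, SUDHL6 or WSUDLCL2 (adjusted p = 0.0769 to 0.0876), and 4 of the cholesterol and fatty acid genes were called lower without SUDHL6 and 4 without WSUDLCL2.

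Stress pathways gave no single direction. KEAP1, the adaptor that marks NRF2 for destruction, ran from 79.6 to 136 CPM (median 85.7) in DMSO and from 26.4 to 47.3 CPM (median 30.6) after pracinostat (log2 change -1.49, SE 0.10, adjusted p = 5.21e-05), and no value after pracinostat reached the lowest DMSO value. In the antioxidant list 6 of 22 genes rose and 2 fell. Of 26 genes of the integrated stress and unfolded protein responses 5 rose (19.2%, the same share as over all genes) and 7 fell (26.9%, against 17.9% of all genes). ERN1 was up by 0.91 and ATF5 down by 0.81 (adjusted p = 0.00563 and 0.000825). Of 23 heat shock genes 6 rose and 2 fell. BAG3, a cochaperone of HSP70, rose by 1.64 (SE 0.44, adjusted p = 0.0155), from 0.41 in TOLEDO to 4.32 in OCILY1. Of 7 metallothionein and zinc genes tested 2 rose and 0 fell, and of 5 drug efflux and vault genes 1 fell, ABCC4. MT2A, a metallothionein, rose by 1.30 (adjusted p = 0.0294). MT2A lost its call without OCILY1, PFEIFFER or SUDHL6 (adjusted p = 0.0630 to 0.0799). The stress response genes called lower numbered 3 without PFEIFFER and 4 without OCILY1 or WSUDLCL2, those called higher 3 without SUDHL6, and heat shock genes called higher 10 without TOLEDO.

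Transcripts of the mitochondrial genome were lower. Of 15 mitochondrially encoded genes 9 fell and 0 rose, with a median of -0.28, and MT-ND4L ran from 785 to 1343 CPM (median 1039) in DMSO and from 584 to 899 CPM (median 734) after pracinostat (log2 change -0.51, SE 0.12, adjusted p = 0.00872), although it overlaps MT-ND4 and reads of the 2 cannot be fully separated. Their share of all counts was 9.06% ± 2.04 (SD, n = 6) in DMSO and 8.25% ± 1.85 after pracinostat, lower in 6 of 6 lines (exact paired permutation test, two-sided, p = 0.03125, the smallest this design allows, and 0.0938 adjusted over 3 composition measures). Nuclear-encoded genes of the respiratory chain gave 4 of 77 higher and 4 lower. SDHA of complex II rose by 0.49 (adjusted p = 0.00442). Of 399 zinc-finger genes of the ZNF series 29 rose (7.27%, against 19.2% of all genes) and 72 fell (18%, near the 17.9% of all genes). ZNF774 was up by 2.60 and ZNF414 down by 1.80 (adjusted p = 0.000247 and 0.00166). Zinc-finger genes called higher numbered 17 without OCILY1, 18 without SUDHL4 and 19 without SUDHL6.

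The median change of a list differed between lines to a varying degree. The median change of ribosome biogenesis genes lay between -0.83 in TOLEDO and -0.48 in WSUDLCL2, and that of acetyltransferases between -0.69 in TOLEDO and -0.38 in SUDHL4. B-cell receptor genes had medians of -0.91 in SUDHL4 and -0.73 in WSUDLCL2 but -0.14 in PFEIFFER and -0.06 in TOLEDO. Neuronal genes had medians of 1.92 in TOLEDO and 1.47 in OCILY1 but 0.44 in WSUDLCL2. These are single libraries per line and treatment, so differences between lines have no test.

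**Figure D5:**
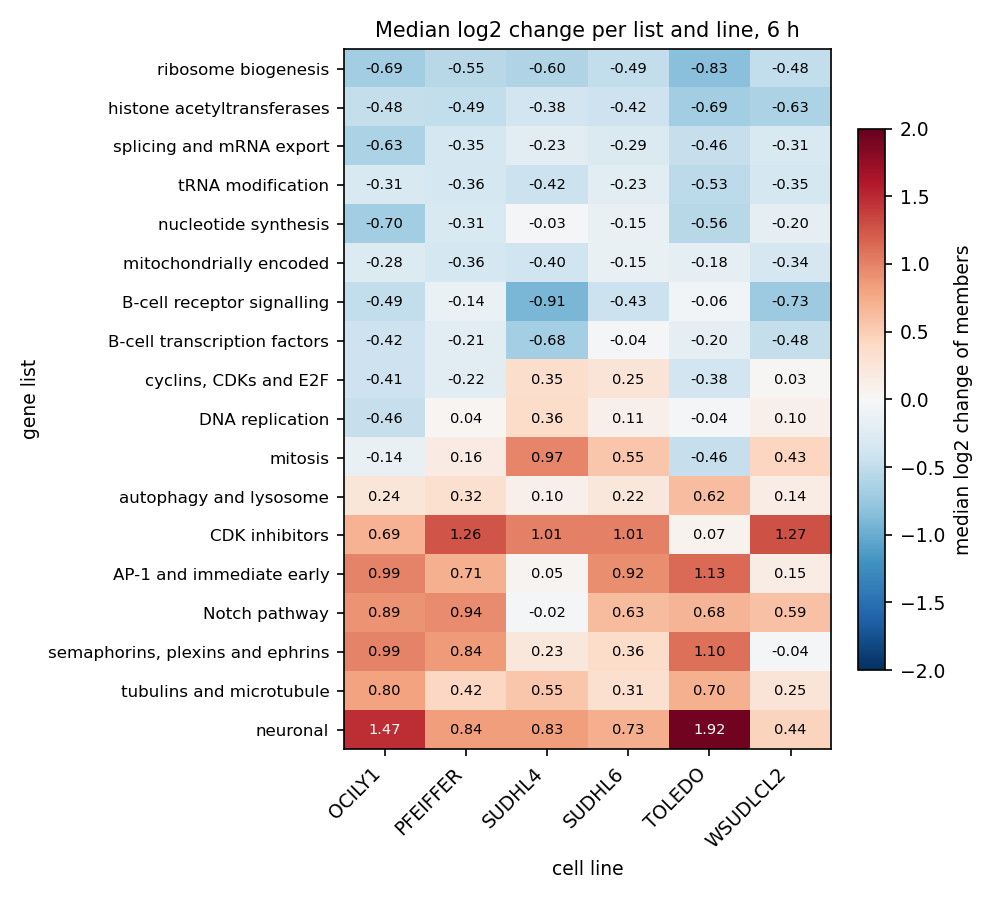
Median log2 change of the tested members of 18 gene lists (rows) in each line (columns), from CPM with a prior count of 2. Ribosome biogenesis is negative in all 6 lines (-0.83 to -0.48), and mitosis runs from -0.46 in TOLEDO to 0.97 in SUDHL4.

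Some genes moved in opposite directions by more than 2-fold in different lines. Of 9521 genes with a symbol and a mean log2 CPM of at least 3, 11 were 2-fold higher in at least 2 lines and 2-fold lower in at least 2. The joint test called 0 of the 11, an outcome that opposite changes make likely from the start. Given here are some of those with the largest spread between lines. Besides H1F0, AHNAK, a giant scaffold protein, went from 33.7 to 170.3 CPM in TOLEDO and from 11.7 to 2.15 in WSUDLCL2. ZMIZ1, a transcriptional coactivator, had a within-line change from -2.30 in WSUDLCL2 to 1.34 in SUDHL6. GDPD5, a membrane phosphodiesterase, ran from -1.35 in WSUDLCL2 to 2.65 in OCILY1, and PLEC, a cytoskeletal linker, from -1.35 in WSUDLCL2 to 1.70 in PFEIFFER. In the fit of all lines their log2 changes were 0.68, -0.60, 0.06 and -0.01, with SEs of 0.64, 0.48, 0.50 and 0.42. WSUDLCL2 was the line with the most negative change for all 4, whereas H1F0 rose in that line.

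The share of genes called in each direction varied with the level of a gene. Genes were ordered by their level in the DMSO libraries of 14 days, which are independent of this comparison. In the lowest of 5 equal groups 22.3% were called higher and 8.31% lower, with a median of 0.19, and in the highest 13.5% and 25.2%, with a median of -0.07. Among genes of at least 5 CPM there, the lowest of 5 had 21.2% higher and 12.6% lower and the highest 12.5% and 25.7%. Long genes were called higher more often than short ones, 22.2% in the longest of 5 groups by span against 14.0% in the shortest, and called lower slightly less often (17.7% against 19.7%). Protein-coding genes were called in both directions (20.6% higher, 18.4% lower). Antisense genes were called less often than all genes (7.37% higher and 13.8% lower of 312, against 19.2% and 17.9%). Without the strand setting their reads cannot be told apart from those of their partners. Long intergenic RNAs were called about equally in both directions (11.4% and 11.0% of 245). Power to call a gene differs with its level. The lowest group of all genes spanned 0.130 to 7.50 CPM. A gene there that passed the filter on low counts only through its pracinostat libraries had to be higher in them. The part of power and of the filter in these shares was not tested.

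Only a few genes went from next to nothing to clear expression in every line. With at most 3 counts in each DMSO library and at least 10 in each pracinostat library there were 2. CCDC184 had 2 counts in all DMSO libraries together and 116 after pracinostat (10 to 32 per library), and PPM1J, a protein phosphatase of the PP2C family, had 5 and 111 (10 to 30 per library). No gene met the mirror-image criterion.

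Vorinostat shares the hydroxamate group with pracinostat, and its 6 h libraries covered 5 of the lines (all but SUDHL6). Doses of both compounds were not given, and the 2 comparisons used the same DMSO libraries, so their values are given side by side only. The log2 change of CDKN1A was 2.08 (SE 0.25) for pracinostat and 2.24 (SE 0.43) for vorinostat. MYC changed by -1.03 and -1.05 (SE 0.25), UBTF by -1.92 and -2.08 (SE 0.15), and DUS3L by -2.42 and -2.84 (SE 0.22). In the direct comparison of the compounds over the 5 shared lines, edgeR's quasi-likelihood test called 0 of 12039 genes, while 1567 had an unadjusted p under 0.05. The direct log2 difference, pracinostat minus vorinostat, was -0.10 (SE 0.14, adjusted p = 0.796) for CDKN1A and -0.08 (SE 0.13, adjusted p = 0.851) for MYC. Over the 15 largest rises it ran from -0.55 to 0.14 and over the 15 largest falls from -0.13 to 0.75, and a p above the threshold does not show that the compounds act alike.

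After 14 days, in 5 lines with their own DMSO libraries (again without SUDHL6), the comparison called 942 of 12594 genes higher (7.48%) and 1008 lower (8%). Of 2236 genes called higher at 6 h and tested at 14 days, 67.8% were positive then, 297 were called higher and 99 lower, with a median of 0.24. Of 2102 genes called lower at 6 h, 65.8% were negative then, 309 were called lower and 54 higher, with a median of -0.15. Of genes not called at 6 h, 52.5% were positive. The difference between the times was not tested. Rises among the largest at 6 h were still positive at 14 days in 14 of 14 genes tested, from 1.08 to 4.20, and 7 of them passed. The largest falls were negative in 8 of 15.

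Single genes show both patterns. CDKN1A stood at 2.07 (SE 0.54, adjusted p = 0.0456) at 14 days, CTTNBP2NL at 2.19 (SE 0.36, adjusted p = 0.0132), TUBB2B at 4.20 (SE 0.67, adjusted p = 0.0136) and KIF5C at 1.56 (SE 0.18, adjusted p = 0.00921). TERT was lower then too, at -2.41 (SE 0.36, adjusted p = 0.0108). MYC and BCL2 were near 0, at 0.05 (SE 0.13, adjusted p = 0.809) and 0.17 (SE 0.16, adjusted p = 0.471). PTTG1 and CENPE, higher at 6 h, were lower at 14 days, at -0.81 (SE 0.10, adjusted p = 0.00921) and -1.38 (SE 0.23, adjusted p = 0.0140), and so was DNMT3B, at -1.44 (SE 0.36, adjusted p = 0.0373). CTSO, CD72 and HLA-DMB, lower at 6 h, were higher at 14 days, at 2.44 (SE 0.50, adjusted p = 0.0227), 0.73 (SE 0.15, adjusted p = 0.0243) and 1.41 (SE 0.17, adjusted p = 0.00921).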

How the data were processed

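RNA was extracted with Trizol and libraries were made with the Illumina TruSeq RNA kit from 1 µg of total RNA, per the labels' protocols. The authors deposited a matrix of raw gene counts; STAR, edgeR and hg38 are named in the submitters' processing notes, without versions or roles, and neither annotation nor strand setting is stated in the sources used. The authors also deposited a table of log2 CPM values, which entered only 1 alternative. Gene positions and types came from GENCODE 29, which matched 17859 of 18011 gene IDs.

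Counts of the 12 libraries were fitted in R 4.3.3 with edgeR 4.0.16 (TMM scaling, filterByExpr with a minimum count of 10 and a minimum total of 15, robust glmQLFit and glmQLFTest, cell line as block), with Benjamini-Hochberg adjustment over all genes tested and calls at an adjusted p under 0.05. Libraries of other groups stayed out of the fit so that the spread is that of this comparison. Libraries were paired because they come from the same cell line. The SE is the absolute log2 change divided by the square root of F. CPM used TMM-scaled totals. Changes within a line used a prior count of 2. The script was tested on simulated data. DESeq2 1.42.0, limma 3.58.1 and other scalings, filters and subsets were alternatives.

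Genes were named by rule: among called genes whose mean level reached 2 on the log2 CPM scale and whose change had 1 sign in 6 of 6 lines, the 15 largest rises and 15 largest falls; up to 2 called members in each direction per list; fixed genes (CDKN1A, MYC, BCL2, BCL6, HDAC1, HDAC2, HDAC3, HDAC6, CREBBP, EP300, EZH2 and KMT2D); the 8 genes on which lines differed most; and genes near 0 in DMSO. Members without values in the text were named as further called members of a list. The comparison, its gene lists and rules were chosen with earlier results of these data known. The trace transcripts in SUDHL6 were looked for after the values were seen. The vorinostat library with a second SUDHL4 label at 14 days was not analysed here. Results on some genes and on 1 gene list are not reported here.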

Additional observations from a re-analysis of the deposited data

Results flagged for a closer look

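In the genes described, the change in 1 of the 6 lines stood apart from the other 5 in the following cases. Of 198 groups of 6 values checked 12 stood apart, including 1 of library totals. The cutoff is set to flag about 1 in 20 groups of 6 independent, normally distributed values. The groups here share the same 6 lines and many genes were chosen by their values, so that rate need not hold. No explanation was tested. TOLEDO moved upward where the others fell for BCL6 (log2 change 2.38, others -1.31 to -0.23) and CD27 (1.05, others -2.08 to -1.26). The CD27 level of TOLEDO in DMSO lay under that of 3 counts (0.468 CPM), so its change there rests partly on the prior count. In SUDHL4, the line whose DMSO library was the shallowest and itself stood apart (library total 3.29 in units of 1e6 counts, other DMSO libraries 6.72 to 8.74), the change was smaller for CTSO (-1.03, others -2.92 to -2.46), NIPAL2 (-0.99, others -2.30 to -1.82) and SEPT3 (1.04, others 2.62 to 3.27). In that line CTSO was at 0.338 CPM in DMSO and 0 CPM after pracinostat and SEPT3 at 0 and 0.343 CPM, under the level of 3 counts in each library, so both changes rest on the prior count. OCILY1 stood apart for BCL7A (-1.10, others -1.98 to -1.68), KDM7A (1.84, others 0.36 to 0.91) and RAD51D (-1.64, others -1.02 to -0.78). WSUDLCL2 had the largest change of RCOR2 (3.69, others 1.16 to 2.06) and SETDB1 (-1.40, others -1.12 to -0.96), and SUDHL6 the smallest of JAG1 (0.22, others 1.61 to 2.43).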

How the results depend on the processing

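The count of 4376 called genes (2270 higher, 2106 lower) was between 4158 and 5289 with DESeq2 (2462 and 2023), size factors, library totals, limma on the deposited log2 values (2206 and 1952), other filters on low counts, or all 6 h libraries in 1 fit (2794 and 2495). Leaving out 1 line gave 3506 (without SUDHL6) to 4049 (without TOLEDO) calls, 1834 to 2142 higher and 1666 to 1907 lower. Without the block that pairs the libraries of a line 368 genes were called, 114 higher and 254 lower. With only the 4 lines whose DMSO is marked V there were 1926 higher and 1761 lower. With only the 2 lines marked P, a choice added after seeing the data that leaves few samples, there were 312 calls, 174 higher and 138 lower, and the log2 changes of MEF2B (0.35), TAP1 (-0.00535), PLEC (1.52) and BCL6 (0.77) took the other sign, as did that of HDAC1, which is near 0. Requiring a 2-fold change left 1276 genes, 769 higher and 507 lower. The number of genes changed 2-fold within a line followed the level cutoff: at a mean of 1 CPM it was 2740 in OCILY1, 2253 in PFEIFFER, 2938 in SUDHL4, 2399 in SUDHL6, 2830 in TOLEDO and 3146 in WSUDLCL2, and at 20 CPM 795, 617, 903, 721, 954 and 1040. Genes near 0 in DMSO numbered 0 when at least 20 counts were asked after pracinostat and 1 when at most 1 count was allowed in DMSO. The shallow SUDHL4 DMSO library sets the lowest level at which a fall or rise can be seen. Of 51 list counts of 1 to 4 called members 31 moved by over 1.5 times without at least 1 line.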
